A study of Mus musculus with 9 samples.

Results

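Gene expression of the cholesterol synthesis pathway and its SREBP2 control circuit was followed after a single exposure to ozone in macrophages washed from the lungs of wild type female mice. The set comprises 27 genes, named by symbol from the textbook pathway and matched through GENCODE M21, out of 54281 genes in the deposited table. This set and the other lists below were chosen with earlier results of these data known. Their shares beside those of all genes are therefore descriptions and not tests. All 27 were found, and all 27 were among the 15713 genes with enough counts to be tested. Mice from Jackson Labs, aged 12 weeks, breathed ozone at 0.8 ppm or air for 3 h in a whole-body chamber. Of the 9 mice, 3 were killed 72 h after ozone, 3 were killed 24 h after ozone, and 3 were air controls, so each group holds n = 3 mice. The labels name no other allele or treatment in any group. Neither the strain nor the time at which air controls were killed is given in the sources used here. The lungs were lavaged through the airways while being massaged, so the RNA is that of all cells washed out, after lysis of red cells.

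Cholesterol is made in the cytosol and endoplasmic reticulum from acetyl-CoA, first through mevalonate to the isoprenoid farnesyl pyrophosphate, then through squalene and lanosterol to cholesterol. The enzymes are controlled together: when sterol in the endoplasmic reticulum falls, the escort protein SCAP carries the membrane-bound factor SREBP2 to the Golgi, where it is cut and released to the nucleus, and INSIG proteins hold SCAP back when sterol is plentiful. Alveolar macrophages take up and break down surfactant, a cholesterol-containing lipid film, so they receive sterol from outside as well as making it.

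SREBP2 binds the sterol regulatory element, whose letters are taken here as TCACNCCAC, beside the CCAAT box bound by NF-Y. Both were searched on both strands of the 250 bases before the gene start in the RefSeq promoter table (build GRCm38.p6), which had an entry for 23 of the 27 genes and none for Sqle, Fdps, Fdft1 or Stard4. CCAAT was present in 21 of the 23 genes (91.3%), against 37.5% of 27025 genes with an entry. The genes without it were Acat2 and Scap. TCACNCCAC was present in 1 of the 23 (4.35%), Hmgcs1, against 1.22% of all genes. The 150 bases before the start are shown for the 6 genes that hold a match and have the smallest p at 24 h against air, since these stood highest above air relative to their error. The 250 bases of Hmgcs1 were added after the search because it alone holds the longer motif. Each runs 5′ to 3′ on the strand of the gene and ends 1 base before the RefSeq start, with the motif in capitals, where ATTGG is CCAAT on the opposite strand. The windows are chr3:89454391-89454540 (+) for Pmvk, chr13:8885456-8885605 (+) for Idi1, chr9:42264301-42264450 (-) for Sc5d, chr10:76531455-76531604 (+) for Lss, chr12:79190962-79191111 (-) for Rdh11, chr5:4104698-4104847 (-) for Cyp51 and chr13:119690101-119690350 (+) for Hmgcs1.
Pmvk: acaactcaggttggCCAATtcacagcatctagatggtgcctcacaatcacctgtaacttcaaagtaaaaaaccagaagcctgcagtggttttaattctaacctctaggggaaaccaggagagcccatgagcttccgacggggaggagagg
Idi1: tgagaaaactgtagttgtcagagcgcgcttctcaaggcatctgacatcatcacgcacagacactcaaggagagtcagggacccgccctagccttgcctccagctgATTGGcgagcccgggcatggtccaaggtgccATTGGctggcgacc
Sc5d: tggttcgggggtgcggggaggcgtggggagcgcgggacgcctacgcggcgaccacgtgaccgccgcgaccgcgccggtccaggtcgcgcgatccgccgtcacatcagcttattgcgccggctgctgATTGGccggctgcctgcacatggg
Lss: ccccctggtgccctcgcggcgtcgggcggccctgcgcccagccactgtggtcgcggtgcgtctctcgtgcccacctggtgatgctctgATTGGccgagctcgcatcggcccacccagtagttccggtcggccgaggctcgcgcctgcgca
Rdh11: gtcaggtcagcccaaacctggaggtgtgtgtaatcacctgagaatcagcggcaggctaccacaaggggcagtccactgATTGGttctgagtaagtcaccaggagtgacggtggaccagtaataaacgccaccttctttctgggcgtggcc
Cyp51: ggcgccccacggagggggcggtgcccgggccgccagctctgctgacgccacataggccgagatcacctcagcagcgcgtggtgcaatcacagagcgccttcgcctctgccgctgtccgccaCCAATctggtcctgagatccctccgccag
Hmgcs1: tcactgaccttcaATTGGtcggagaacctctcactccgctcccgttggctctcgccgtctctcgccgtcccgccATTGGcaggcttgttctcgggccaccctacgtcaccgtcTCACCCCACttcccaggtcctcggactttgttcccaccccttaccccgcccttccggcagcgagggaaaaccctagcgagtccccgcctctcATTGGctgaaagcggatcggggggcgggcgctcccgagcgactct
In these windows CCAAT begins 136 bases before the start in Pmvk, 45 and 14 in Idi1, 24 in Sc5d, 62 in Lss, 72 in Rdh11 and 29 in Cyp51. In Hmgcs1 it begins 237, 176 and 45 bases before the start, and TCACCCCAC begins at 137, sharing no base with them. Insig2 and Ggps1, whose levels hardly varied between the groups, also hold CCAAT. With CCAAT in 21 of the 23 genes, its presence could hardly tell genes apart by their response, whatever that was.

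The libraries held 47095543 to 60248305 estimated counts, and levels are given as CPM, counts scaled to library size by TMM. Markers of resident alveolar macrophages summed to 22283 to 35658 CPM over 15 genes, the highest of the lists searched in every library. Chil3 alone made up 14809 to 24837 CPM of these sums, so they mostly report 1 gene, and Siglecf stood at 231.5 to 528.6 CPM. Replicate 1 at 72 h and replicate 2 at 24 h also carried markers of other cells. The 10 B cell genes summed to 991 and 1590 CPM in them, against 158 to 200 CPM in the other 7, of which the lectin Cd22 alone made up 155 to 196 CPM. The 8 genes of serous cavity macrophages summed to 864 and 630 CPM against 5.53 to 12.4 CPM, and the 10 T cell genes to 56.3 and 455 CPM against 2.6 to 10.9 CPM. The 6 red cell genes summed to 2510 and 2910 CPM in these libraries, while replicate 1 at 24 h had 855 CPM and the remaining 6 libraries 12.2 to 143 CPM. Air replicate 2 had 143 counts of Xist, the RNA of the inactive X chromosome, against 42538 to 80561 in the other 8, while of 4 Y-linked genes Ddx3y and Eif2s3y were at 0 in all 9 libraries, Uty had 1 count in 2 libraries and 0 in 7, and Kdm5d had 3 to 12 counts, with 8 in air replicate 2. Counts of the results are therefore also given without these libraries. Over all genes, an adjusted p under 0.05 by edgeR, here a call, was reached at 72 h against air by 592 lower and 268 higher genes, but with upper quartile scaling by 107 and 192, and with DESeq2 size factors by 282 and 224. At 72 h against 24 h it was reached by 2008 lower and 847 higher genes, and with upper quartile scaling by 1302 and 1163.

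Summed over the 27 genes, the transcripts of the set took 1351, 1171 and 1338 CPM at 72 h, 1959, 1671 and 1922 CPM at 24 h, and 1421, 1264 and 1599 CPM in air. Every library at 24 h was above every library of the other groups, and those at 72 h and in air overlapped. The means were 1287 ± 100.4 CPM at 72 h, 1851 ± 156.7 CPM at 24 h and 1428 ± 167.6 CPM in air (SD, n = 3 each). Of the 27 genes, 26 were highest in a library at 24 h, 13 of them in replicate 1, 9 in replicate 3 and 4 in replicate 2. The exception was Ggps1, highest in air replicate 1. Of all genes tested, 12.1%, 7.94%, 24% and 8.95% were highest in these 4 libraries, in the order named. The lowest library was replicate 2 at 72 h for 18 genes, air replicate 2 for 5, replicate 1 at 72 h for 3 and air replicate 1 for 1. Of all genes tested, the shares lowest there were 11.6%, 7.76%, 16.9% and 9.48%, in the same order. In RNA of all cells washed out, fewer cells of a type and less RNA per cell cannot be told apart.

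**Figure D1:**
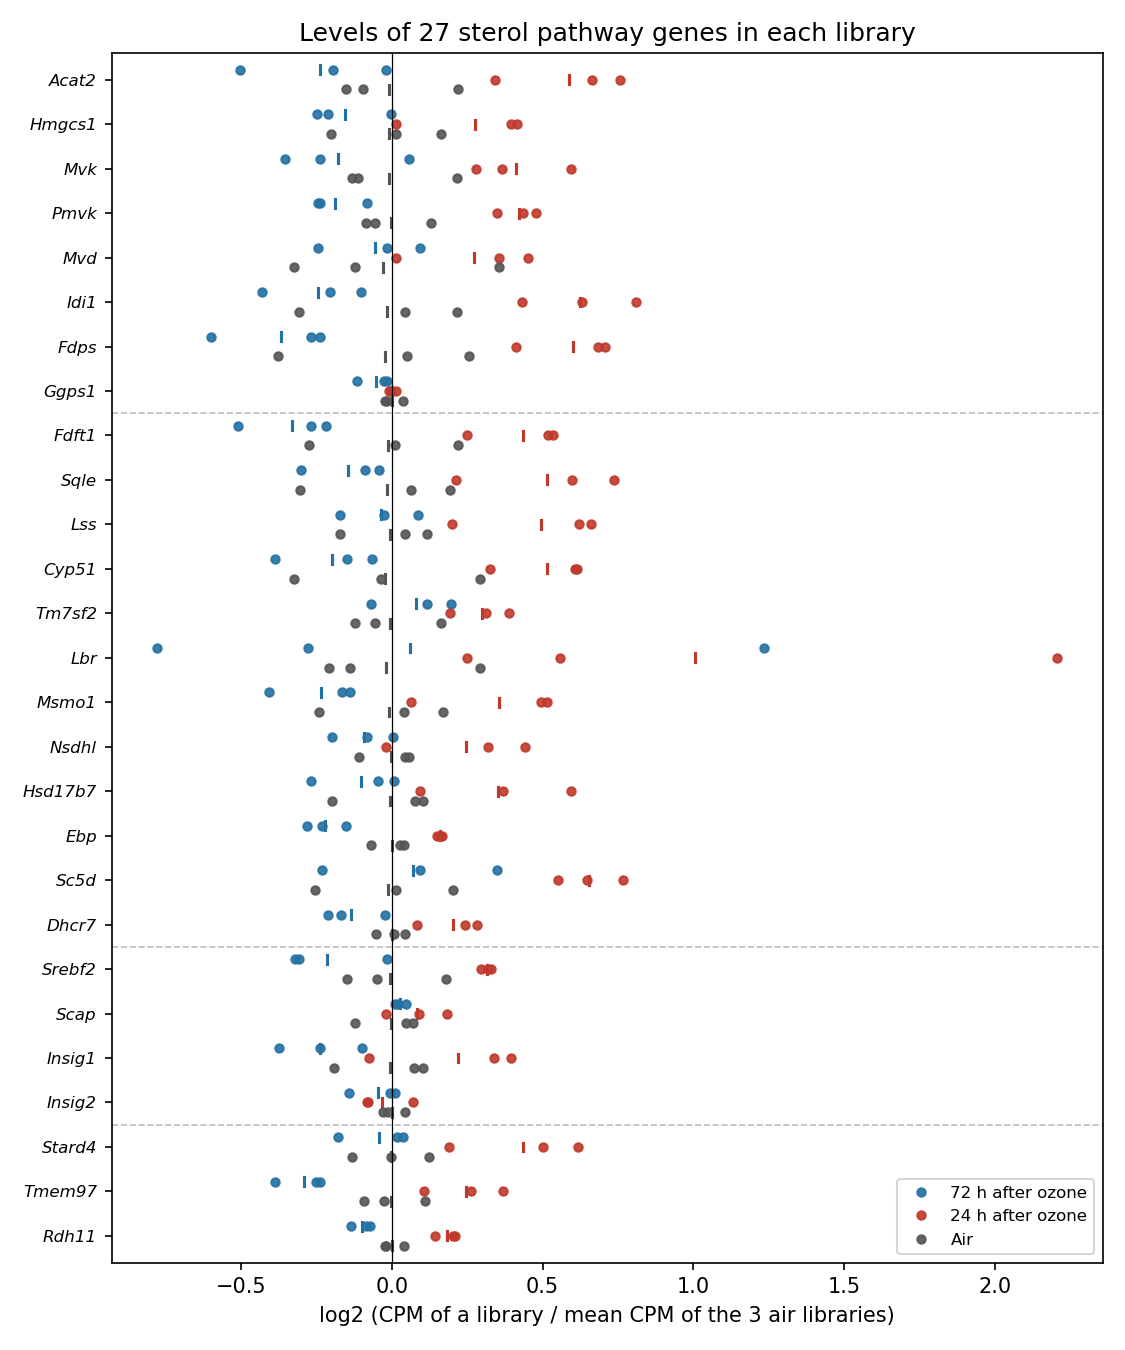
Level of each of the 27 genes in each library, as log2 of its CPM over the mean CPM of the 3 air libraries (x axis), with genes down the page in pathway order and dashed lines between mevalonate enzymes, squalene and sterol enzymes, regulators, and sterol handling and other targets. Points are libraries, 3 per group, and short bars are group means of the log2 values; most genes have their 24 h points to the right of those at 72 h, while Insig2, Scap and Ggps1 lie near 0 in all groups and Lbr has 1 high point at 24 h and 1 at 72 h.

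Set against each other, levels per kilobase of exon in air spanned a wide range along the pathway. Hmgcs1 was the highest at 39.5 CPM per kb, followed by Mvd at 36.2, Ebp at 25.9, Idi1 at 23.5 and Insig1 at 22.3 CPM per kb. The lowest were Tm7sf2 at 1.77, Lss at 3.15, Lbr at 3.21 and Hsd17b7 at 3.81 CPM per kb. Exon length is that of all annotated exons of a gene, so a gene with many long unused exons appears lower.

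The comparison of 72 h with 24 h after ozone asks how the macrophages differed between the later and the earlier time. Cholesterol synthesis genes were lower at 72 h than at 24 h from its first thiolase, Acat2, to its last reductase, Dhcr7: 19 of the 27 were called lower and 0 higher, while 12.8% of all genes tested were called lower and 5.39% higher. All 27 had a negative log2 fold change, although Insig2 was above 0 with DESeq2 size factors and Insig2 and Ggps1 were with upper quartile scaling, against 46.9% of all genes with a positive one, and the median was -0.52, against -0.025 over all genes. In 21 of the 27 all 3 libraries at 72 h lay below all 3 at 24 h, as they did for 22.7% of all genes. At an unadjusted p under 0.05, 21 were lower and 0 higher, against 20.4% of all genes lower, and DESeq2 called 20 lower, against 17% of the genes it tested. Adjusted p-values are from edgeR's quasi-likelihood test over all 15713 genes. By role, 5 of 8 mevalonate enzymes were called lower (median -0.60), 9 of 12 squalene and sterol enzymes (median -0.56), 2 of 4 regulators (median -0.26) and 3 of 3 genes of sterol handling and other functions (median -0.49).

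Of the mevalonate enzymes, Idi1, which isomerises isopentenyl pyrophosphate (ENSMUSG00000058258.14, chr13:8885501-8892451), had 71.4, 61.0 and 76.6 CPM at 72 h and 144, 111 and 127 CPM at 24 h. All 3 libraries at 72 h lay below those at 24 h, and the log2 fold change was -0.87 ± 0.15 (SE, edgeR adjusted p = 0.00950). Fdps, the farnesyl pyrophosphate synthase at which the sterol and isoprenoid branches part (ENSMUSG00000059743.12, chr3:89093588-89101959), had 56.5, 44.1 and 55.5 CPM at 72 h against 107, 88.8 and 109 CPM at 24 h. Its change was the largest of the called genes, -0.97 ± 0.17 with edgeR adjusted p = 0.01003, and its mean at 72 h was 52.0 ± 6.91 CPM against 102 ± 11.1 CPM at 24 h (SD, n = 3 each). Acat2, the thiolase that joins acetyl units at the head of the pathway, had 22.1, 17.8 and 24.9 CPM at 72 h and 40.0, 32.0 and 42.7 CPM at 24 h, again with no overlap, and fell by 0.82 ± 0.16 on the log2 scale (edgeR adjusted p = 0.0127). Pmvk, phosphomevalonate kinase (ENSMUSG00000027952.16, chr3:89454541-89469013), had the smallest p of the set. It stood at 26.4, 26.3 and 29.4 CPM at 72 h and 42.1, 39.6 and 43.4 CPM at 24 h, so libraries within a group differed little beside the gap between the groups, and it changed by -0.61 ± 0.077 (edgeR adjusted p = 0.00541). Mvk, mevalonate kinase, had 13.2, 9.90 and 10.7 CPM at 72 h against 16.3, 15.4 and 19.1 CPM at 24 h and changed by -0.59 ± 0.14 (edgeR adjusted p = 0.0263).

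The other 3 mevalonate enzymes were not called. Hmgcs1, HMG-CoA synthase and the highest transcript of the set, had 157, 153 and 181 CPM at 72 h and 239, 183 and 242 CPM at 24 h, where replicate 2 was close to the highest library at 72 h. Its groups did not overlap, and its log2 fold change of -0.44 ± 0.13 had edgeR adjusted p = 0.0532. Mvd, mevalonate pyrophosphate decarboxylase, had 71.8, 56.8 and 66.6 CPM at 72 h and 92.1, 67.9 and 86.2 CPM at 24 h, and these overlapped (-0.33 ± 0.19, edgeR adjusted p = 0.258). Ggps1, which makes the geranylgeranyl pyrophosphate used to prenylate proteins and so leads away from sterols, had 28.7, 30.5 and 30.7 CPM at 72 h and 30.8, 31.3 and 31.0 CPM at 24 h, a difference of -0.052 ± 0.049 (edgeR adjusted p = 0.517).

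The enzymes that commit isoprenoids to sterols were lower at 72 h as well. Fdft1, squalene synthase (ENSMUSG00000021273.11, chr14:63145150-63179578), had 38.4, 32.4 and 39.7 CPM at 72 h and 66.1, 54.9 and 66.8 CPM at 24 h (-0.77 ± 0.14, edgeR adjusted p = 0.0101). Sqle, the squalene epoxidase that takes up the first oxygen of the sterol path (ENSMUSG00000022351.14, chr15:59315077-59331192), had 52.8, 45.6 and 54.5 CPM at 72 h and 93.7, 65.2 and 85.0 CPM at 24 h (-0.67 ± 0.16, edgeR adjusted p = 0.0266). In both genes replicate 2 was the lowest library at 24 h, and even so lay above every library at 72 h. Lss, lanosterol synthase, which closes the sterol rings, averaged 33.2 ± 2.97 CPM at 72 h against 48.4 ± 8.11 CPM at 24 h (-0.54 ± 0.13, edgeR adjusted p = 0.0267).

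Of the enzymes that convert lanosterol to cholesterol, Cyp51, lanosterol demethylase (ENSMUSG00000001467.5, chr5:4081145-4104746), had 81.0, 68.6 and 85.7 CPM at 72 h and 137, 112 and 137 CPM at 24 h, with no overlap. It changed by -0.72 ± 0.16 (edgeR adjusted p = 0.0203). Msmo1, the methylsterol oxidase, averaged 65.0 ± 6.54 CPM at 72 h and 98.7 ± 16.4 CPM at 24 h and changed by -0.60 ± 0.15 (edgeR adjusted p = 0.0272). Sc5d, sterol desaturase, and Hsd17b7, a sterol keto reductase, changed by -0.57 ± 0.16 and -0.46 ± 0.14, with edgeR adjusted p = 0.0403 and 0.04997, so Hsd17b7 lay at the limit of a call. Ebp, the sterol isomerase (ENSMUSG00000031168.14, chrX:8185329-8193512), had 49.2, 51.0 and 53.8 CPM at 72 h and 66.7, 67.1 and 66.4 CPM at 24 h. The libraries at 24 h lay within 1 CPM of each other and well above those at 72 h, and the change was -0.38 ± 0.052 (edgeR adjusted p = 0.00610). Dhcr7, which reduces the last intermediate to cholesterol, averaged 60.2 ± 4.17 CPM at 72 h and 76.1 ± 5.39 CPM at 24 h and changed by -0.34 ± 0.071 (edgeR adjusted p = 0.0161).

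Of these enzymes 3 were not called. Nsdhl, a sterol dehydrogenase, had 27.6, 25.5 and 29.3 CPM at 72 h and 39.7, 28.9 and 36.5 CPM at 24 h, overlapping only through replicate 2 at 24 h (-0.35 ± 0.11, edgeR adjusted p = 0.0665). The sterol reductase activity at the ring double bond left by Cyp51 is shared by Tm7sf2 and Lbr. Tm7sf2 averaged 8.25 ± 0.758 CPM at 72 h and 9.57 ± 0.651 CPM at 24 h (-0.22 ± 0.11, edgeR adjusted p = 0.225). Lbr, which is also the lamin B receptor of the nuclear envelope, had 36.0, 8.91 and 12.6 CPM at 72 h and 22.5, 70.6 and 18.2 CPM at 24 h, against 13.2, 13.9 and 18.8 CPM in air. Its high values, 36.0 and 70.6 CPM, are those of the 2 libraries that carried B cell and serous cavity markers, whose part in them was not tested. The log2 fold change was -0.95 ± 0.69 (edgeR adjusted p = 0.394), and -0.90 without these 2 libraries.

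**Figure D2:**
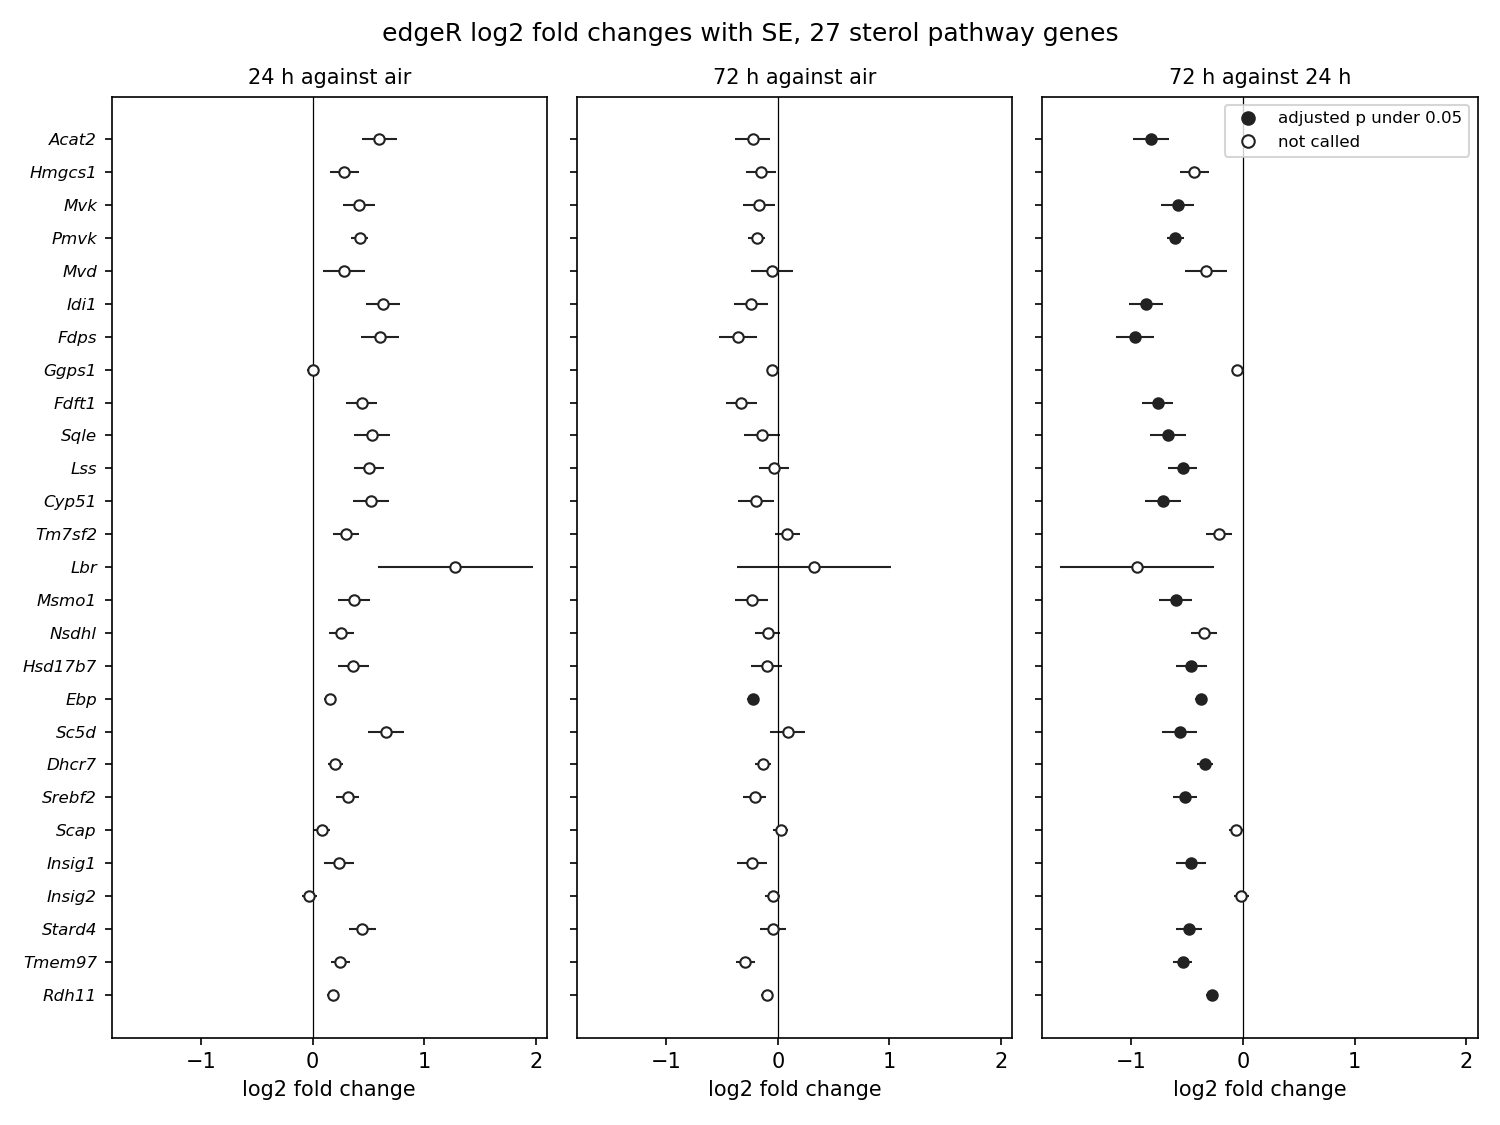
Log2 fold changes of the 27 genes with edgeR's SE as bars (x axis) in the 3 comparisons, from left to right 24 h with air, 72 h with air and 72 h with 24 h, and genes in pathway order down the page. Filled points have an adjusted p under 0.05: 0 genes in the first panel, Ebp alone in the second, and 19 in the third, all lower at 72 h.

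Of the 4 regulators, Srebf2 and Insig1 were called lower and Insig2 and Scap were not called. Srebf2, which encodes SREBP2 (ENSMUSG00000022463.8, chr15:82147181-82205379), had 138, 111 and 113 CPM at 72 h and 171, 175 and 174 CPM at 24 h. The 3 libraries at 24 h agreed closely, those at 72 h were all lower, and the change was -0.52 ± 0.11 (edgeR adjusted p = 0.0145). Insig1, which retains SCAP in the endoplasmic reticulum and is itself an SREBP target, had 64.5, 53.3 and 58.6 CPM at 72 h and 87.4, 65.6 and 90.8 CPM at 24 h, and its highest library at 72 h lay just under its lowest at 24 h (-0.47 ± 0.14, edgeR adjusted p = 0.0464). Its paralog Insig2, which acts on SCAP in the same way, had 21, 23.4 and 23.1 CPM at 72 h and 24.3, 21.9 and 21.9 CPM at 24 h. The groups overlapped, and the difference was -0.014 ± 0.068 (edgeR adjusted p = 0.914). Scap, the escort protein, was likewise not called, at 78.7 ± 0.984 CPM at 72 h and 82.0 ± 5.71 CPM at 24 h (-0.060 ± 0.069, edgeR adjusted p = 0.608). Whether Insig1 and Insig2 differed from each other in their change was not tested.

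Outside the enzymes and the control circuit, all 3 genes were called lower. Stard4, which carries sterol between membranes, averaged 49.0 ± 3.96 CPM at 72 h and 68.6 ± 10.2 CPM at 24 h (-0.49 ± 0.12, edgeR adjusted p = 0.0249). Tmem97, a sterol-responsive membrane protein of the endoplasmic reticulum and lysosome (ENSMUSG00000037278.9, chr11:78541817-78550777), had 18.9, 17.2 and 19.1 CPM at 72 h and 29.1, 24.2 and 27.02 CPM at 24 h and changed by -0.54 ± 0.087 (edgeR adjusted p = 0.00795). Rdh11, a retinol dehydrogenase, had the smallest change of the called genes. Its libraries were tight, at 21.9, 21.2 and 22.2 CPM at 72 h and 25.7, 26.9 and 26.8 CPM at 24 h, and it changed by -0.28 ± 0.051 (edgeR adjusted p = 0.0102).

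**Figure D3:**
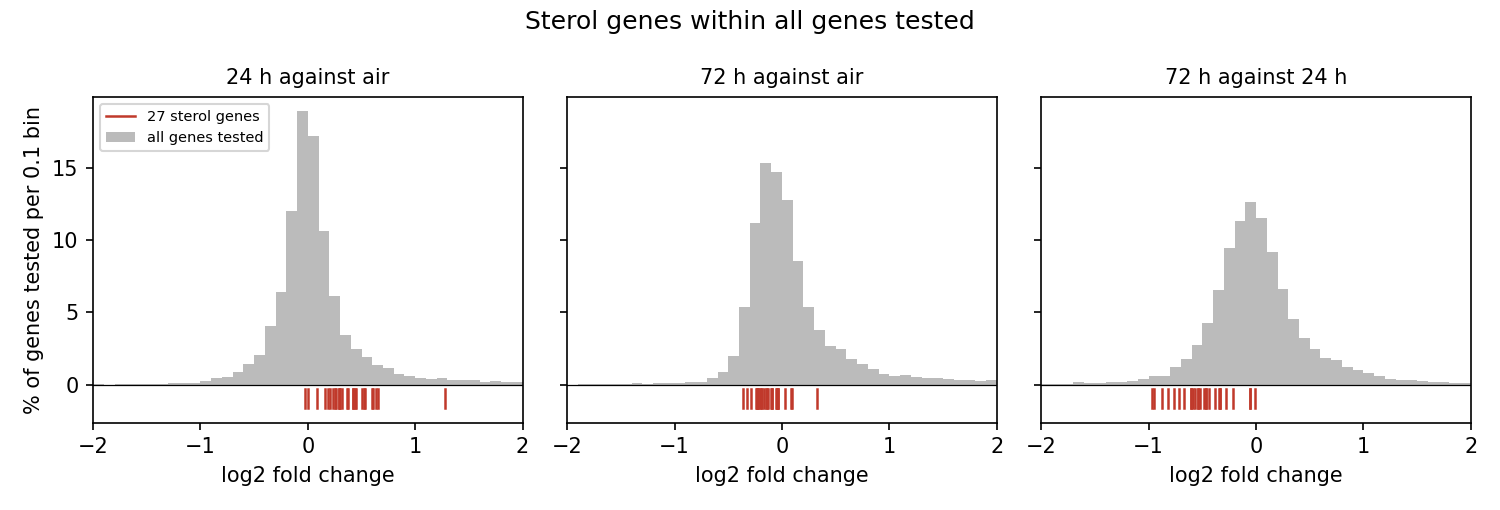
Distribution of log2 fold changes of all genes tested (grey bars, percent of genes per bin of 0.1) in the 3 comparisons, with the 27 genes as red marks under the axis. The red marks lie mostly above 0 at 24 h against air (median 0.37), mostly below 0 at 72 h against air (-0.14) and all below 0 at 72 h against 24 h (-0.52); the axis stops at -2 and 2.

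Leaving out 1 library at a time kept the median between -0.58 and -0.44 but moved the count of calls. It was 2, Ebp and Pmvk, without replicate 2 at 72 h, 6 without replicate 1 at 24 h, 9 without replicate 3 at 24 h, 9 without replicate 3 at 72 h, and 13 to 20 without each of the other 5. The share of all genes called lower was 1.69%, 4.83%, 6.88% and 6.25% in the first 4 of these fits. Pmvk and Ebp were called in 9 of 9 such fits, Idi1, Fdps, Tmem97 and Rdh11 in 8, Fdft1 and Acat2 in 7, Dhcr7 and Srebf2 in 6, Mvk in 5, Cyp51 and Stard4 in 4, Sqle, Lss and Msmo1 in 3, Sc5d in 2, and Insig1 and Hsd17b7 in 1. Without the libraries that carried B cell and serous cavity markers, an alternative added once the data had been seen, 22 genes were called lower, against 8.5% of all genes, with a median of -0.61. They were the same 19 together with Hmgcs1, Nsdhl and Lbr. Without air replicate 2, a library of neither group compared here, 17 were called, against 8.49% of all genes.

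**Figure D4:**
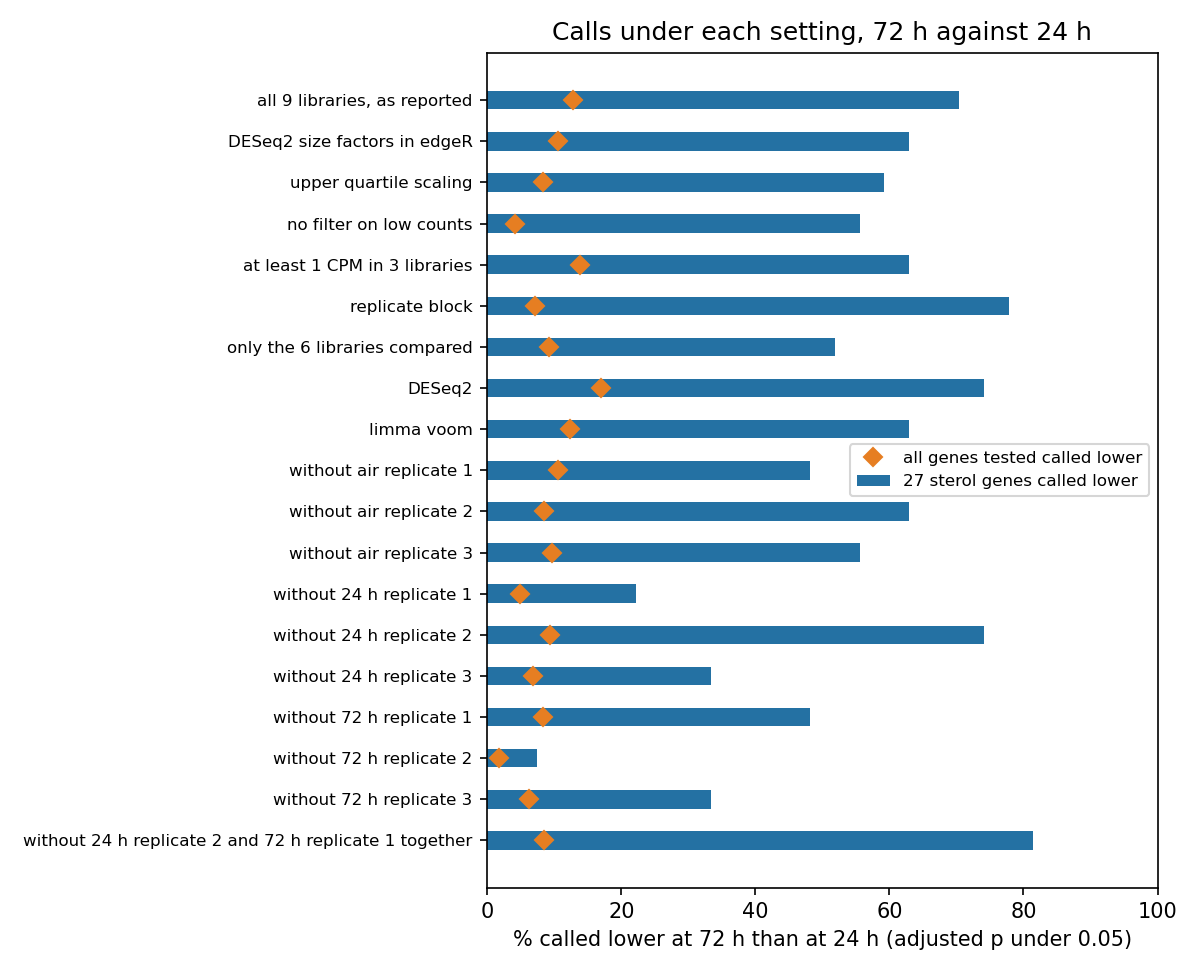
Percent called lower at 72 h against 24 h (x axis, adjusted p under 0.05) under each setting of the analysis, for the 27 genes (bars) and for all genes tested (diamonds). The bars run from 7.41% without replicate 2 at 72 h to 81.5% without the 2 marker-carrying libraries, and lie above the diamond of the same setting in each of the 19 settings.

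Proliferation genes moved in the same comparison. Relative to the air mean, the median of 12 genes such as Mki67 and Top2a was -0.075, -0.35 and -0.21 in replicates 1, 2 and 3 at 72 h, 0.58, 0.61 and 0.58 at 24 h, and -0.25, 0.022 and 0.20 in air, on the log2 scale. Of the 12, 11 were called lower at 72 h than at 24 h, against 12.8% of all genes (median log2 fold change -0.76). The exception was Mki67 (-0.21 ± 0.097, edgeR adjusted p = 0.1625), whose 3 libraries at 72 h still lay above all 3 in air (0.24 ± 0.097, edgeR adjusted p = 0.1728). The part of proliferation genes in the lower level of sterol genes was not tested. The median of the 27 sterol genes relative to the air mean was -0.10, -0.25 and -0.044 at 72 h, 0.44, 0.19 and 0.40 at 24 h, and 0.011, -0.15 and 0.16 in air. Replicate 2 at 72 h was the lowest of its group for both sets of genes, and replicate 3 in air was the highest of its group for both. At 24 h replicate 2 was the lowest for the sterol genes and not for the proliferation genes. In air the lowest was replicate 2 for the sterol genes and replicate 1 for the proliferation genes. Gene by gene, replicate 2 at 24 h was the lowest of its group for 22 of the 27, and summed alveolar macrophage markers were lowest there too, at 22283 CPM. In air, replicate 2 was the lowest for 20, and the marker sum was again the lowest of the group, at 32852 CPM. At 72 h, replicate 2 was the lowest for 23 of the 27, but there the marker sum was the highest of the group, at 30842 CPM against 26198 and 30553 CPM. Of 12 lung epithelium markers 6, and of 7 dendritic cell markers 4, were called higher at 72 h than at 24 h, against 5.39% of all genes, at sums of 68 to 87.4 CPM and 78.1 to 87.3 CPM at 72 h, against 47.8 to 55.4 CPM and 33.6 to 70.1 CPM at 24 h. Their part was not tested either.

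**Figure D5:**
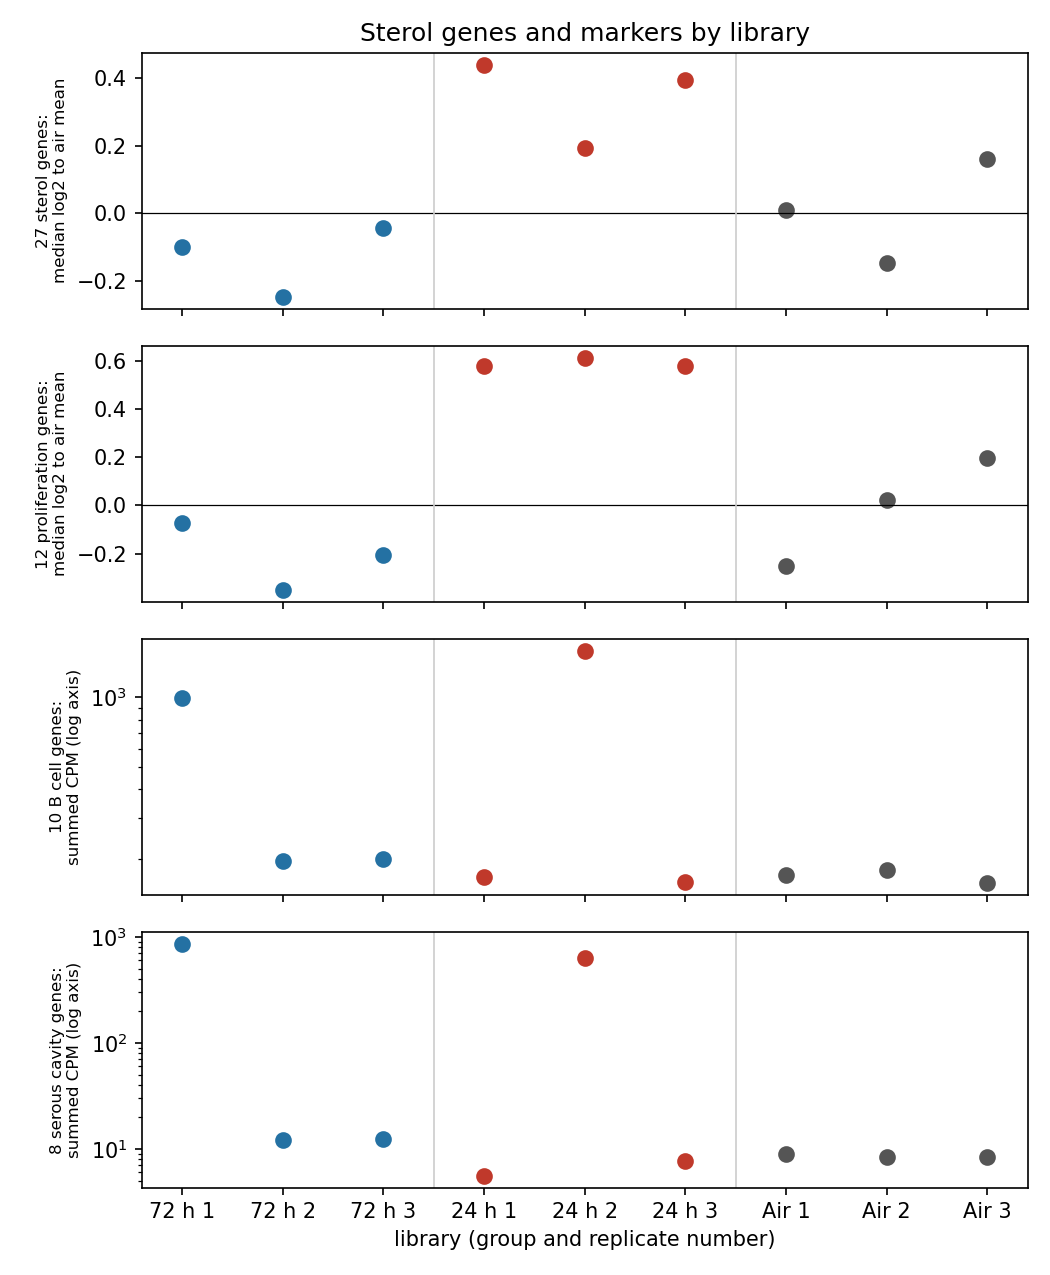
Values by library (x axis, 72 h, 24 h and air, replicates 1 to 3): median log2 ratio to the air mean of the 27 sterol genes and of 12 proliferation genes, and summed CPM of 10 B cell genes and 8 serous cavity macrophage genes on log axes. The 24 h libraries are the highest for both sets of genes in the upper panels, and B cell and serous cavity genes stand apart in replicate 1 at 72 h (991 and 864 CPM) and replicate 2 at 24 h (1590 and 630 CPM).

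The comparison of 24 h with air asks what differed in the macrophages at the first time after ozone. Most sterol genes stood above air at 24 h, but none of the 27 passed edgeR's test: 0 were called, against 0% of all genes called higher and 0.00636% called lower. Of the 27, 26 had a positive log2 fold change, against 52.4% of all genes, with a median of 0.37 against 0.014. In 16 of the 27, all 3 libraries at 24 h lay above all 3 in air, as they did for 10.4% of all genes. At an unadjusted p under 0.05, 19 were higher and 0 lower, against 8.68% of all genes higher. DESeq2 called 10 higher, namely Acat2, Cyp51, Fdps, Idi1, Lss, Pmvk, Rdh11, Sc5d, Sqle and Stard4, against 3.2% of the genes it tested, and 0 lower. Voom of limma called 0.

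Apart from Lbr, the largest differences lay in enzymes on either side of squalene. Sc5d had 43.8, 37.7 and 40.3 CPM at 24 h and 26.0, 21.6 and 29.6 CPM in air, with no overlap, a log2 difference of 0.66 ± 0.16 (edgeR adjusted p = 0.150). Idi1 averaged 128 ± 16.6 CPM at 24 h and 82.2 ± 14.7 CPM in air (84.7, 66.5 and 95.5 CPM in replicates 1, 2 and 3), which is 0.63 ± 0.15 (edgeR adjusted p = 0.146). Fdps, with 102 ± 11.1 CPM at 24 h and 66.7 ± 14.3 CPM in air, and Acat2, with 38.2 ± 5.53 and 25.3 ± 3.64 CPM, differed by 0.61 ± 0.17 and 0.60 ± 0.16. Pmvk had the smallest p of the set here too, at 42.1, 39.6 and 43.4 CPM at 24 h and 29.3, 29.9 and 34.1 CPM in air (0.42 ± 0.076, edgeR adjusted p = 0.117). Sqle, Cyp51 and Lss differed by 0.53 ± 0.16, 0.52 ± 0.16 and 0.51 ± 0.13, and their lowest library at 24 h, replicate 2 in each, was 65.2, 112 and 39.0 CPM against a highest air library of 64.3, 109.9 and 36.8 CPM. Stard4, Fdft1, Pmvk and Mvk lay between 0.42 and 0.45.

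Among the regulators, Srebf2 had 171, 175 and 174 CPM at 24 h and 134, 126 and 158 CPM in air, where replicate 3 was the highest, and its groups did not overlap (0.31 ± 0.11, edgeR adjusted p = 0.251). Insig1 averaged 81.3 ± 13.7 CPM at 24 h and 69.1 ± 7.52 CPM in air and overlapped (0.23 ± 0.14). Scap, at 0.086 ± 0.069, Insig2, at -0.029 ± 0.068, and Ggps1, at 0.0014 ± 0.049, had the smallest differences of the 27. Hmgcs1 overlapped as well, at 221 ± 32.9 CPM at 24 h and 182 ± 22.8 CPM in air (0.29 ± 0.13, edgeR adjusted p = 0.348). The remaining genes lay between 0.16, for Ebp, and 0.37, for Msmo1 and Hsd17b7, apart from Lbr at 1.28 ± 0.70, which was 0.41 without the 2 marker-carrying libraries.

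Without those 2 libraries 0 of the 27 were called and the median was 0.41, and without air replicate 2, which had the lowest sterol gene levels in air for 20 of the 27 and lacked Xist, 0 were called and the median was 0.26. Air replicate 3 was the highest air library for 22 of the 27, and without it the median was 0.46. The 12 proliferation genes had 0 calls here and a median of 0.59. The 15 markers of resident alveolar macrophages had 0 calls and a median of -0.27, while Car4 among them went the other way (0.72 ± 0.19). They summed to 22283 to 31463 CPM at 24 h, below the 32852 to 35658 CPM in air. Most of these sums was Chil3, at 14809 to 21678 CPM at 24 h and 22245 to 24837 CPM in air. The part of either list in the result was not tested.

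The comparison of 72 h with air asks whether the macrophages still differed from controls at the later time. The sterol genes lay close to air, on the lower side: 1 of the 27 was called lower, against 3.77% of all genes, and 0 were called higher, against 1.71%. Of the 27, 23 had a negative log2 fold change and 4 a positive one, against 49% of all genes with a positive one, and the median was -0.14 against -0.007 over all genes. With upper quartile scaling 9 had a positive one, and the median was -0.089 against 0.046 over all genes. At an unadjusted p under 0.05, 4 genes were lower and 0 higher, against 16.4% of all genes lower. All 3 libraries at 72 h lay below all 3 in air in 3 genes, Ebp, Tmem97 and Rdh11, against 22.1% of all genes. Markers of cell types and of proliferation moved in this comparison too. Of 15 markers of resident alveolar macrophages 4 were called lower, at sums of 26198 to 30842 CPM at 72 h and 32852 to 35658 CPM in air. Most of these sums was Chil3, which was not called, at 17886 to 21115 CPM at 72 h and 22245 to 24837 CPM in air. Of 12 proliferation genes 1 was called lower. Of 12 lung epithelium markers 6 were called higher, at sums of 68 to 87.4 CPM at 72 h and 38.9 to 46.2 CPM in air, and of 7 dendritic cell markers 3, at 78.1 to 87.3 CPM at 72 h and 36 to 42.5 CPM in air. Of 7 neutrophil markers tested 1 was called higher, and the B cell, T cell, serous cavity macrophage and red cell lists had 0 calls. Their part in the levels of sterol genes was not tested.

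The called gene was Ebp, with 49.2, 51.0 and 53.8 CPM at 72 h and 57.0, 60.9 and 61.5 CPM in air and no overlap. It averaged 51.3 ± 2.34 CPM at 72 h and 59.8 ± 2.45 CPM in air (SD, n = 3 each), and fell by 0.22 ± 0.052 on the log2 scale (edgeR adjusted p = 0.0478). The call ended in all 9 fits that left out 1 library, where the change was -0.27 to -0.19, and under each other scaling and filter, while DESeq2 also called Ebp, against 7.46% of the genes it tested called lower. Tmem97 had 18.9, 17.2 and 19.1 CPM at 72 h and 22.1, 21.2 and 24.3 CPM in air (-0.29 ± 0.087, edgeR adjusted p = 0.0838) and was called without replicate 2 at 24 h alone. Fdps and Fdft1 had the lowest fold changes, -0.36 ± 0.17 and -0.33 ± 0.14 (edgeR adjusted p = 0.226 and 0.182), and overlapped with air through air replicate 2. Srebf2 averaged 121 ± 15.0 CPM at 72 h and 139 ± 16.5 CPM in air (-0.21 ± 0.11), and Insig1 58.8 ± 5.59 and 69.1 ± 7.52 CPM (-0.23 ± 0.14). The genes on the other side were Sc5d, Tm7sf2, Scap and Lbr, at 0.089 ± 0.16, 0.085 ± 0.11, 0.026 ± 0.069 and 0.33 ± 0.69, the last -0.49 without the 2 marker-carrying libraries. Without the 2 marker-carrying libraries 0 of the 27 were called and the median was -0.14, and without air replicate 2 these were 0 and -0.22. Both comparisons with air share their 3 air libraries, and both comparisons at 72 h share the 72 h libraries.

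Across the 9 libraries, each gene was compared with the mean of the other members by the Pearson correlation of log2 CPM. The correlation was 0.82 to 0.99 for 23 of the 27 genes, Idi1 being the highest at 0.991. It was 0.46 for Scap, 0.37 for Lbr, 0.31 for Ggps1 and 0.010 for Insig2. These values are a description over libraries that differ in group, in depth and in the markers above. They pool the groups, so genes higher at 24 h correlate through the group difference already described. Whether the genes also varied together within groups was not tested, and no share of all genes with such values is given. Among the 10 genes outside the set whose pattern was most like its mean, with r of 0.955 to 0.983 over 9 libraries, were Rfwd3, Clpb, Zmynd19, Nomo1, Armc6, Rad1, Dtl, Aacs and E2f6. Aacs, which makes acetoacetyl-CoA from ketone bodies, had 34.2, 26.6 and 30.9 CPM at 72 h, 45.5, 41.9 and 46.5 CPM at 24 h and 31.9, 32.3 and 37.5 CPM in air, with 24 h above the other groups.

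Genes of 4 lists next to the pathway were counted in the same way at 72 h against 24 h, where 12.8% of all genes were called lower and 5.39% higher. Of 12 genes that process SREBP or sense sterol, 1 was called lower, Tmem41b (-0.26 ± 0.058, edgeR adjusted p = 0.0188), and 0 higher, and Srebf1, which encodes SREBP1, averaged 115 ± 8.93 CPM at 72 h and 135 ± 12.7 CPM at 24 h and was not called. Of 12 genes that use farnesyl or geranylgeranyl pyrophosphate for prenylation, ubiquinone or dolichol, 3 were called lower: Rce1, which trims prenylated proteins (-0.36 ± 0.061), Coq2, of ubiquinone synthesis (-0.39 ± 0.077), and Fnta, a subunit of the prenyl transferases (-0.29 ± 0.060), with edgeR adjusted p of 0.00861, 0.0128 and 0.0162. Of 14 genes of cholesterol storage, transport and oxidation, 0 were called lower and 1 higher. This was Abca1, the pump that exports cholesterol to lipoproteins, with 279, 315 and 307 CPM at 72 h and 219.6, 136 and 204 CPM at 24 h, a log2 fold change of 0.69 ± 0.19 (edgeR adjusted p = 0.0438). All 3 libraries at 72 h lay above those at 24 h. Of the 14 genes of this list, 9 had a positive and 5 a negative log2 fold change, with a median of 0.13, so 1 call does not describe the list. Of 12 genes of acetyl-CoA supply and fatty acid synthesis, 4 were called lower and 0 higher. They were the citrate carrier Slc25a1 (-0.42 ± 0.067), fatty acid synthase Fasn (-0.60 ± 0.14), and the desaturases Scd2 (-0.46 ± 0.11) and Fads2 (-1.01 ± 0.28), with edgeR adjusted p of 0.00787, 0.0202, 0.0226 and 0.0403. At 24 h against air 0 genes of these lists were called. At 72 h against air 4 were called lower, namely Pgrmc1, Fnta, Rce1 and Slc25a1, and 0 higher, out of 50 genes on the lists and against 3.77% of all genes lower and 1.71% higher.

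The estimated counts were whole numbers, within 0.01, for 13 of the 27 genes in all libraries. They were not for the other 14: Hmgcs1, Idi1, Fdps, Fdft1, Lss, Msmo1, Mvk, Sc5d, Acat2, Ggps1, Tm7sf2, Lbr, Srebf2 and Scap. Whether these genes share reads with other genes, which would make their levels less certain, was not tested. The genes that held their call in each fit without 1 library, Pmvk and Ebp, were among the 13.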

How the data were processed

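Total RNA of lung macrophages from 9 mice was sequenced with a stranded total RNA kit, and RNA integrity numbers were at least 8.8, per the labels' protocols. The authors deposited estimated counts, 1 value per gene and library, not scaled to library size; 80.5% are whole. The submitters' processing notes name Trimmomatic 0.39, FastQC, Salmon, DESeq2 and the build GRCm38.p6; neither the other versions nor the annotation nor the use of strand in counting is stated there, so genes that overlap on opposite strands are uncertain. GENCODE M21 matched 54107 of 54281 identifiers, 53544 with the same version.

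The authors' estimated counts were rounded and analysed in R 4.3.3 with edgeR 4.0.16: filterByExpr kept 15713 genes, and TMM scaling and 1 robust quasi-likelihood fit of all 9 libraries followed, with a biological coefficient of variation of 0.312. Adjusted p-values follow Benjamini and Hochberg and cover every tested gene, and SE is the log2 fold change over the square root of F. With 3 mice a group, an exact permutation test cannot go below p = 0.1, two-sided, so none was run on single genes. The procedure was also run on simulated data, in which all libraries shared a mean profile apart from genes changed on purpose. No library there stood apart by markers of other cells, so the run cannot show how the procedure does on these data. In the real data, libraries of a group differed beyond sampling noise (chi-square over its degrees of freedom 7.41 to 142). The members and lists were chosen with earlier results of these data known. All 27 members are named; from each neighbouring list up to 4 genes are, called ones with the smallest p first. Alternatives were DESeq2 1.42.0, limma 3.58.1 voom, DESeq2 size factors or upper quartile scaling, no filter or 1 CPM in 3 libraries, a replicate block, only the 6 libraries compared, each library left out, and, added after the data were seen, the fit without the 2 libraries with markers of other cells. Single values of some genes are not reported here.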

Additional observations from a re-analysis of the deposited data

Results flagged for a closer look

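For 19 of the 27 genes the levels at the 2 times after ozone differed by the test of the difference itself, 72 h against 24 h, with edgeR adjusted p under 0.05. All 19 were lower at 72 h, beside 12.8% of all genes tested. The count fell to 2 without replicate 2 at 72 h and to 6 without replicate 1 at 24 h. Insig1 and Hsd17b7 were called in 1 of the 9 fits that each left out 1 library. The log2 fold changes were -0.87 for Idi1, -0.97 for Fdps, -0.82 for Acat2, -0.61 for Pmvk and -0.59 for Mvk among mevalonate enzymes. They were -0.77 for Fdft1, -0.67 for Sqle, -0.54 for Lss, -0.72 for Cyp51, -0.60 for Msmo1, -0.57 for Sc5d, -0.46 for Hsd17b7, -0.38 for Ebp and -0.34 for Dhcr7 among squalene and sterol enzymes. They were -0.52 for Srebf2 and -0.47 for Insig1, and -0.54 for Tmem97, -0.49 for Stard4 and -0.28 for Rdh11. Since both times are set against the same air libraries, this is also the difference between their changes from air.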

How the results depend on the processing

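For 72 h against 24 h the calls numbered 14 to 21 under the other scalings, filters and tools run with all libraries or the 6 compared (4.07% to 17% of all genes called lower), 2 to 20 with 1 library left out (1.69% to 10.6%), and 22 (8.5%) without the 2 libraries carrying markers of other cells. Genes with a positive fold change numbered 1 with DESeq2 size factors, 2 with upper quartile scaling, 1 with the filter of 1 CPM, 2 without those 2 libraries, and 0 to 1 with 1 library left out. For 24 h against air DESeq2 called 10 and every other alternative run called 0, with medians of 0.26 to 0.46 with 1 library left out. For 72 h against air calls were 0 with DESeq2 size factors, upper quartile scaling, no filter, the 1 CPM filter, the replicate block, the 6 libraries compared, voom and without the 2 libraries, 1 with DESeq2, and 0 to 1 with 1 library left out. Positive fold changes there numbered 9 with upper quartile scaling, 7 with the 1 CPM filter and 3 to 7 with 1 library left out. Same-numbered libraries correlated at -0.613 to 0.475 in their deviations from group means. With 3 libraries a group, 2 libraries carrying markers of other cells, this cannot decide whether the numbers pair the mice. Replicate 2 was the lowest of its group for 23 of the 27 at 72 h, 22 at 24 h and 20 in air, with no count of the same shares over all genes. The replicate block gave 21, 0 and 0 calls at 72 h against 24 h, 24 h against air and 72 h against air. At an unadjusted p under 0.05 by edgeR it gave 22, 23 and 9 genes, against 21, 19 and 4 without the block. Apart from what is named, causes were not tested.

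Some fold changes near 0 changed sign. At 24 h against air Ggps1 was -0.00214 with DESeq2 size factors, -0.0048 with upper quartile scaling, -0.00554 with no filter, -0.00182 with DESeq2 and -0.00425 without the 2 libraries, and -0.0141 to 0.0143 with 1 library left out. At 72 h against air, upper quartile scaling gave 0.0195 for Lss, 0.0042 for Mvd, 0.00935 for Insig2, 0.0138 for Stard4 and 0.00184 for Ggps1, and the 1 CPM filter gave 0.0129 for Lss, 0.00247 for Insig2 and 0.00699 for Stard4. Without the 2 libraries Insig2 was 0.0258, Sc5d -0.0375, Ggps1 0.00251 and Lbr -0.487. With 1 library left out the ranges were -0.125 to 0.0345 for Lss, -0.199 to 0.176 for Mvd, -0.0845 to 0.00193 for Insig2, -0.0608 to 0.213 for Sc5d, -0.113 to 0.0337 for Stard4, -0.509 to 0.651 for Lbr and -0.0451 to 0.0689 for Scap. At 72 h against 24 h Insig2 was 0.00914 with DESeq2 size factors, 0.045 with upper quartile scaling, 0.0247 with the 1 CPM filter, 0.0279 without the 2 libraries and -0.0499 to 0.052 with 1 library left out. Ggps1 was 0.00664 with upper quartile scaling and 0.00676 without the 2 libraries, and Scap -0.0938 to 0.0093 with 1 library left out. Of 486 single-gene values in each comparison, 87 lost their call at 72 h against 24 h, 17 at 72 h against air and 0 at 24 h against air, while 8, 1 and 10 gained one.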
